A study of Mus with 8 samples.

Results

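With earlier results of these data known, interferon-stimulated genes were examined in mouse liver as 32 genes chosen by symbol, of 54532 genes listed. Of these, 21 are mainly known as targets of type I interferon (the Isg15, Ifit, Oas and Mx genes and their relatives) and 11 as targets of interferon-gamma (Gbp, Irgm and immunoproteasome genes and Irf1). Each symbol matched 1 gene, and all 32 passed the filter on low counts that left 11729 genes to test. The livers came from mice given dextran sulfate sodium (DSS) at 2.5%, an oral irritant of the colon that was stopped on day 6. The DSS group has 4 libraries, numbered 15, 48, 49 and 50, and its later feed is not stated outright. The other 4 libraries, numbered 35, 45, 65 and 71, came from mice that also received alcohol and a high-fat diet, here called the diet-alcohol group. All 8 libraries thus share DSS, and no liver without DSS was analysed here. Strain, age and sex are not given in the labels, and nothing in them says that every library came from its own animal, so p-values here cover the variation among libraries, which may be technical.

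Type I interferons bind a receptor on nearly every cell and act through the kinases JAK1 and TYK2. STAT2 and IRF9 then take part in a complex that switches on genes carrying an interferon-stimulated response element. Interferon-gamma, made mainly by T and NK cells, acts through JAK1 and JAK2 and induces IRF1, guanylate-binding proteins, immunity-related GTPases and the inducible proteasome subunits. In liver, hepatocytes, Kupffer cells and endothelial cells all respond to both, and many of the genes answer to either interferon.

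Total counts ran from 12502300 to 16967839 per library and counts of nuclear genes from 2722757 to 10947612. Mitochondrial transcripts took 55.8 to 79.1% of the counts in the DSS group and 30.2 to 73.0% in the diet-alcohol group (exact two-sided permutation p = 0.143, n = 4 each). Library diet-alcohol 35 stood apart: 1239 of the 11729 tested genes had no count there, against 3 to 84 in the other 7 libraries. Some results that rest on it are therefore given with and without it, and others only with it. A result given once may thus still depend on that library. The plot of fold changes per gene shows each interferon-stimulated gene both ways. The level of a gene is its TMM-scaled CPM, the count relative to library size, and a fold change is the log2 ratio of diet-alcohol to DSS with its standard error.

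Among the 32 genes 1 differed between the groups by more than the spread within them. Bst2, which encodes tetherin, the membrane protein that holds budding virus particles at the cell surface, was 3.09-fold lower in the diet-alcohol group. Of the 21 type I genes 1 fell, none rose and 20 did not pass the test (quasi-likelihood test of edgeR at an adjusted p of 0.05). None of the 11 interferon-gamma genes passed. Of all tested genes 1.26% passed, 0.588% higher and 0.674% lower, so 1 of 32 is close to the background. At an unadjusted p under 0.05 there were 2 type I genes, Bst2 and Ifit2, both lower, and 0 interferon-gamma genes, against 11.7% of all tested genes in either direction and 5.72% lower. These counts depended on diet-alcohol 35. Without it there were 1 type I gene, Bst2, and 3 interferon-gamma genes, Gbp3 and Gbp6 lower and Irf1 higher. The share of all tested genes at that p in that setting is not given here. At an adjusted p under 0.05 DESeq2 and limma-voom each called Bst2 alone, as does the authors' deposited table. The deposited fold changes are nearly those of the DESeq2 fit (Bst2 -1.6273 in both), so that table is not a separate check.

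**Figure D1:**
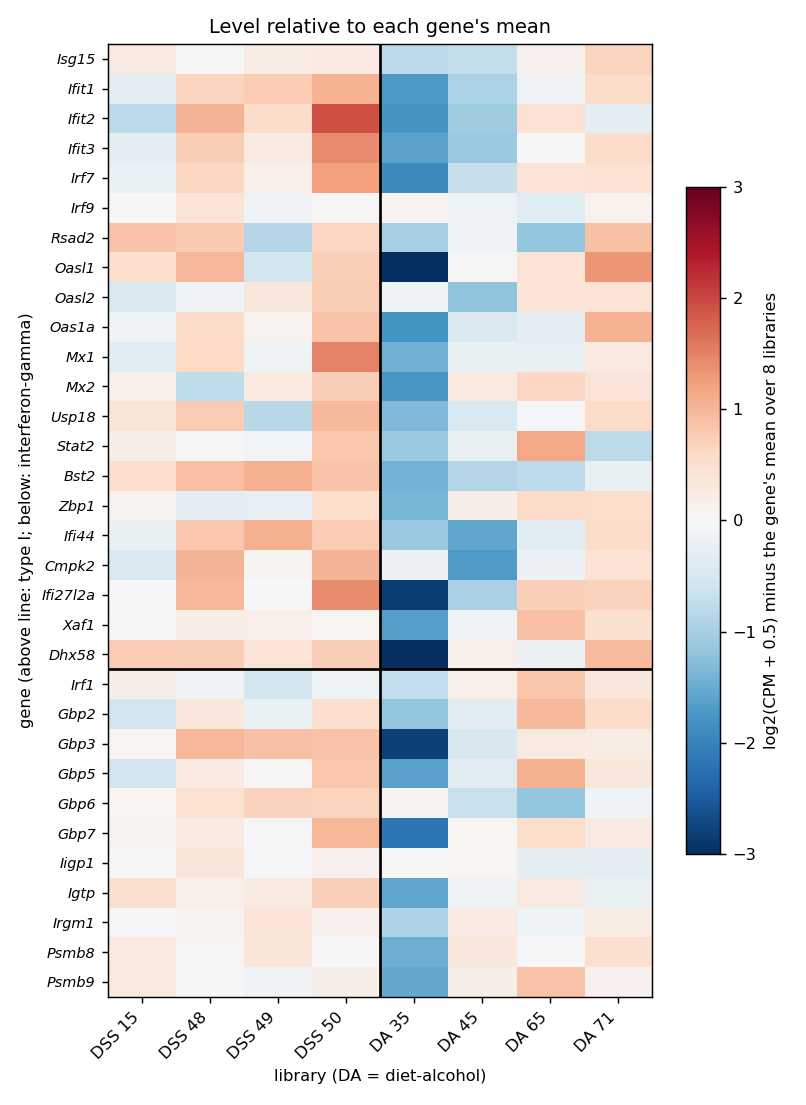
Heat map of log2(CPM + 0.5) minus the mean of each gene over the 8 libraries (colour scale in log2 units, cut at 3 either way), with the 21 type I genes above the horizontal line, the 11 interferon-gamma genes below it, DSS libraries left of the vertical line and diet-alcohol (DA) libraries right of it. Diet-alcohol 35 is the lowest library for 25 of the 32 genes.

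Bst2 (ENSMUSG00000046718, chromosome 8, 71534255 to 71537456, minus strand, GRCm38) had 52.4, 69.2, 77.4 and 66.7 CPM in DSS 15, 48, 49 and 50. It had 13.4, 19.7, 21.2 and 31.5 CPM in diet-alcohol 35, 45, 65 and 71. Every diet-alcohol library was below every DSS library. This held for 1 of the 32 genes, and the groups did not overlap for 8.77% of all tested genes, 4.63% lower and 4.14% higher. The means were 66.5 ± 10.4 and 21.5 ± 7.49 CPM (SD, n = 4 each). The log2 fold change was -1.63 ± 0.27 (95% interval -2.22 to -1.04, edgeR adjusted p = 0.0135). Without diet-alcohol 35 it was -1.46 ± 0.24 (adjusted p = 0.00305). Its size changed little when any 1 library was left out (-1.88 to -1.46). The call was lost without DSS 48 (-1.61, adjusted p = 0.0648), DSS 49 (-1.55, 0.0566), DSS 50 (-1.63, 0.0528) or diet-alcohol 45 (-1.59, 0.0635), and with the mitochondrial share as a covariate (-1.69, adjusted p = 0.0914).

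Bst2 was also the most abundant of the 32 genes per length, at a mean of 47.6 FPKM over the 8 libraries. Tissue RNA holds all liver cells together, so fewer cells of a type and less RNA per cell cannot be told apart. Summed hepatocyte markers (8 of 8 measured, among them Alb and Apoa1) ran from 41500 to 64970 CPM in the DSS group and from 24220 to 29330 CPM in the diet-alcohol group, without overlap, and none of the 8 passed singly by edgeR (1 at an unadjusted p under 0.05; DESeq2 called Alb lower and limma-voom none). Of 6 listed markers of plasmacytoid dendritic cells, which also carry tetherin, 1 passed the filter on low counts. The 6 together summed to 7.23 to 16.2 CPM against 3.19 to 12.4, and Ccr9, Klk1 and Pacsin1 had 10 counts or fewer over all libraries. The part of either cell type in the Bst2 difference was not tested.

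**Figure D2:**
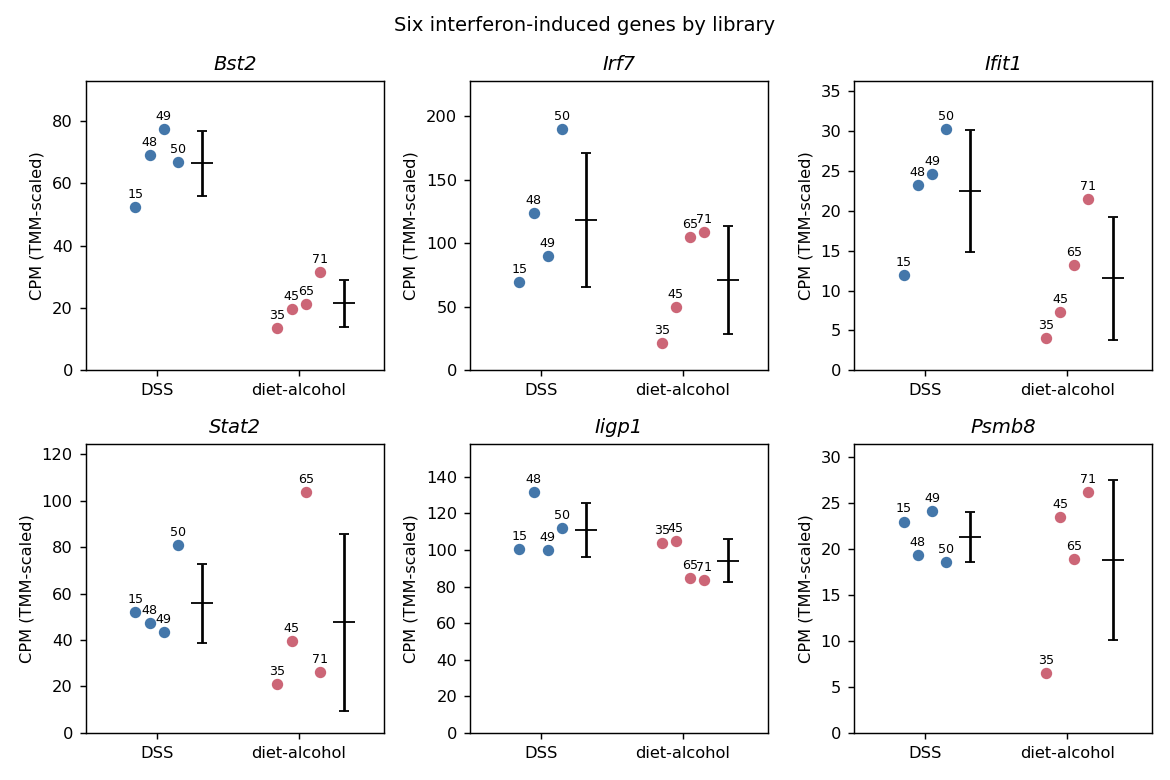
TMM-scaled CPM of Bst2, Irf7, Ifit1, Stat2, Iigp1 and Psmb8 in each library (points, numbered by library), with the mean and SD of each group of 4 as a bar. Bst2 shows no overlap between groups, at 52.4 to 77.4 against 13.4 to 31.5 CPM, while the other 5 genes overlap.

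The 3 Ifit genes lie side by side on chromosome 19 (34550694 to 34650009) and encode proteins that bind viral RNA and block its translation. Ifit1 had 12, 23.3, 24.7 and 30.2 CPM in DSS 15, 48, 49 and 50 and 4.03, 7.28, 13.2 and 21.5 CPM in diet-alcohol 35, 45, 65 and 71. DSS 15 fell among the diet-alcohol values, so the groups overlapped. The log2 fold change was -0.96 ± 0.46 (edgeR adjusted p = 0.459). Ifit3 followed the same order of libraries within the diet-alcohol group, at 3.47, 5.10, 11.6 and 17.3 CPM, after 9.29, 19.7, 14 and 31.4 CPM in the DSS group (-0.99 ± 0.51, adjusted p = 0.501).

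Ifit2 spanned the widest range of the 3 within the DSS group, from 2.62 CPM in DSS 15 to 19.96 CPM in DSS 50, which is 7.62-fold. Its diet-alcohol values were 1.12, 2.14, 6.85 and 4.05 CPM (-1.54 ± 0.63, adjusted p = 0.351). Ifit3 has a close copy, Ifit3b, and how the counting divided reads between them is not given in the sources used here. Ifit3b stood at -0.62 ± 0.43 (adjusted p = 0.663).

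Isg15, a ubiquitin-like protein that is attached to other proteins after interferon, was even across the DSS group at 9.12 to 11.3 CPM. The diet-alcohol libraries lay on both sides of that range, with 5.09 and 5.39 CPM in 35 and 45, 10.2 in 65 and 15 in 71. The log2 fold change was -0.24 ± 0.35 (adjusted p = 0.856), and -0.05 without diet-alcohol 35. Usp18, the protease that removes ISG15 and also dampens the type I receptor, had 8.23, 11.1, 3.36 and 12.8 CPM in the DSS group and 2.24, 4.49, 6.08 and 9.60 CPM in the diet-alcohol group (-0.66 ± 0.48, adjusted p = 0.673).

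The oligoadenylate synthetase genes detect double-stranded RNA, and the Oasl genes are their relatives. Oas1a had 3.62 to 7.60 CPM in the DSS group and 0.784, 2.80, 3.20 and 8.69 CPM in the diet-alcohol group (-0.46 ± 0.58, adjusted p = 0.830). It stood at -0.11 without diet-alcohol 35. Oasl2 had 5.11 to 12.2 CPM and 2.80 to 9.60 CPM (-0.21 ± 0.41, adjusted p = 0.904). Oasl1 had no count in diet-alcohol 35. Counting error alone at the depth of that library would allow up to 0.168 CPM (3 counts). Low counts were scarce in that library, so the absent count sets no firm upper limit. Oasl1 had 4.94, 6.63 and 12.9 CPM in the other 3 diet-alcohol libraries. Its DSS range of 3.12 to 10.1 CPM covers 2 of those 3, and its log2 fold change went from -0.22 ± 0.87 to 0.20 ± 0.39 without diet-alcohol 35 (adjusted p = 0.955 and 0.885). Oas1a belongs to a family of near-identical copies, so its counts are uncertain singly.

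The 2 Mx genes, dynamin-like GTPases that trap viral particles, were scarce. Mx1 had 6 to 22 counts per DSS library and 0 to 29 per diet-alcohol library (-1.25 ± 0.99, adjusted p = 0.711). Mx2 had 1.26 to 4.47 CPM in the DSS group and 0.392 CPM in diet-alcohol 35, with 3.13 to 4.09 CPM in the other 3 (-0.08 ± 0.63, adjusted p = 0.979; 0.30 ± 0.41 without 35).

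Among the remaining effectors, Rsad2 (viperin, which makes a chain-terminating nucleotide) and its chromosome 12 neighbour Cmpk2, a nucleotide kinase, did not share one order of libraries. Rsad2 had 5.55, 5.26, 1.32 and 4.77 CPM in the DSS group and 1.175, 2.59, 0.994 and 5.68 CPM in the diet-alcohol group (-0.68 ± 0.60, adjusted p = 0.750). Cmpk2 had 2.62, 8.21, 4.07 and 8.19 CPM, then 3.30, 0.823, 3.31 and 5.32 CPM (-0.85 ± 0.55, adjusted p = 0.623). Ifi44, a GTP-binding protein gene, had 2.31 to 6.35 CPM in the DSS group and 0.617 to 4.33 CPM in the diet-alcohol group (-1.22 ± 0.59, adjusted p = 0.466). Its only diet-alcohol value above 2.10 CPM was in library 71.

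Ifi27l2a, a small membrane protein gene, was the third most abundant of the 32 per length at a mean of 28.1 FPKM. It ranged from 9.95 to 27.6 CPM in the DSS group and had 0.952 CPM in diet-alcohol 35, 4.86 in 45, 16.7 in 65 and 16.4 in 71 (-0.80 ± 0.68, adjusted p = 0.732). Its value was -0.42 without diet-alcohol 35. Zbp1, a sensor of Z-form nucleic acid that can trigger necroptosis, and Xaf1, which promotes apoptosis, were the 2 type I genes with positive fold changes (0.10 ± 0.42 and 0.04 ± 0.46, adjusted p = 0.959 and 0.985). Both had negative values with limma-voom (-0.07 and -0.34) and stood at 0.40 and 0.36 without diet-alcohol 35. Xaf1 had the narrowest DSS range of all 32 genes, 6.49 to 7.36 CPM, and the diet-alcohol libraries spread from 1.68 to 12.2 CPM. Dhx58, the RIG-I relative LGP2, showed the same contrast of 7.43 to 9.60 CPM in the DSS group against 0, 6.17, 4.75 and 11 CPM (-0.71 ± 0.81, adjusted p = 0.811). Its value was -0.29 without diet-alcohol 35.

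The transcription factors that carry the type I signal were the better counted members. Irf7, which amplifies interferon production and is itself induced, had 69.6, 124, 89.8 and 190 CPM in DSS 15, 48, 49 and 50. In diet-alcohol 35, 45, 65 and 71 it had 21.04, 49.6, 105 and 109 CPM, so 2 libraries lay below the DSS range and 2 inside it. The log2 fold change was -0.73 ± 0.47 (95% interval -1.78 to 0.31, adjusted p = 0.627), or -0.43 without diet-alcohol 35. Reads from Phrf1, a gene that overlaps Irf7 on the other strand and had 1007 counts in all, cannot be told apart where the counting ignored strand.

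Stat2 had 51.9, 47.3, 43.4 and 80.9 CPM in the DSS group and 21.1, 39.5, 104 and 26.2 CPM in the diet-alcohol group, with library 65 the highest of all 8 (-0.23 ± 0.45, adjusted p = 0.902). Irf9, its DNA-binding partner, was the steadiest of the type I genes in the diet-alcohol group, at 15.02 to 21.2 CPM against 18.2 to 25.9 CPM in the DSS group. Its log2 fold change was -0.17 ± 0.21 (edgeR adjusted p = 0.828). The 95% interval of -0.63 to 0.29 excludes a 2-fold change in either direction. Irf9 overlaps Rnf31, which had 1501 counts in all, in the gene models on the same strand. How the counting divided reads between them is not given in the sources used here.

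**Figure D3:**
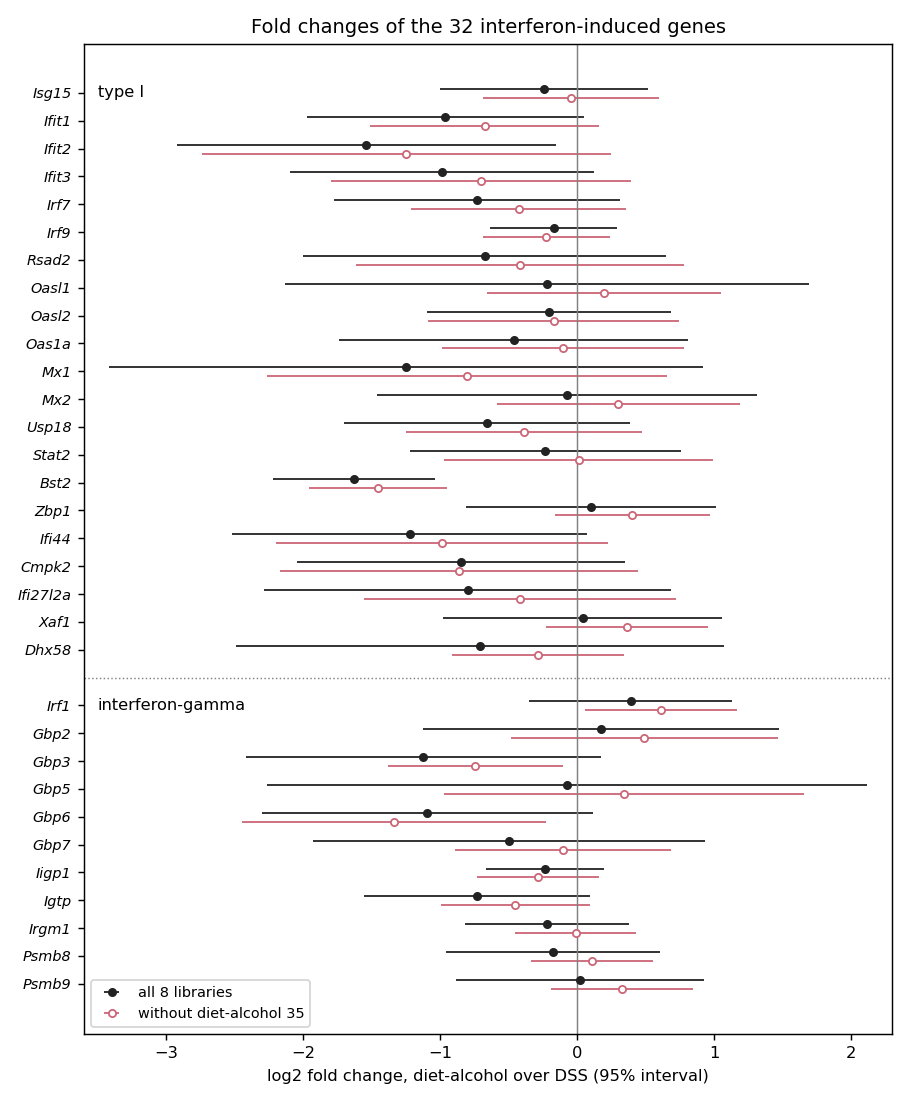
Log2 fold change of each of the 32 genes, diet-alcohol over DSS, with its 95% interval from edgeR, over all 8 libraries (filled points) and without diet-alcohol 35 (open points). Bst2 is at -1.63 and -1.46, and its interval and that of Ifit2 (up to -0.16) are the 2 that exclude 0 over all 8 libraries.

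The interferon-gamma genes lay closer to 0. Their median log2 fold change was -0.22, and -0.01 without diet-alcohol 35, beside -0.68 and -0.39 for the type I genes and -0.01 for all tested genes. Of the 11, 8 had negative values, or 6 without diet-alcohol 35. Of the 21 type I genes 19 were negative, or 16 without diet-alcohol 35, where 50.5% and 49.2% of all tested genes were. Both medians stayed negative in each of the other settings tried, and the difference between them was not tested. For 4 of the 11 (Iigp1, Irgm1, Psmb8 and Psmb9) the 95% interval excluded a 2-fold change in either direction, and among the type I genes 1 of 21 (Irf9) did so. Without diet-alcohol 35 these counts were 6 of 11 and 7 of 21. The interval reached a 2-fold lower level or beyond for 18 type I genes, Bst2 among them, and 6 interferon-gamma genes, and for 12 and 2 without diet-alcohol 35.

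Iigp1, an immunity-related GTPase that breaks open parasite vacuoles, was the best counted of them. It had 101, 132, 99.8 and 112 CPM in DSS 15, 48, 49 and 50 and 104, 105, 84.5 and 83.3 CPM in diet-alcohol 35, 45, 65 and 71. The groups overlapped, and diet-alcohol 35 lay inside the DSS range. The log2 fold change was -0.24 ± 0.20 (95% interval -0.67 to 0.19, adjusted p = 0.723).

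Irgm1, a regulatory member of the same GTPase family, had 18.8 to 25.4 CPM in the DSS group and 9.96, 23.3, 17.9 and 22.9 CPM in the diet-alcohol group (-0.22 ± 0.27, adjusted p = 0.827). Igtp (Irgm3) had 8.28 to 12.4 CPM and 2.18, 6.71, 9.06 and 6.31 CPM (-0.73 ± 0.38, adjusted p = 0.505). Igtp overlaps Irgm2 in the gene models on the same strand, and Irgm2, which is not among the 32, had the 4 diet-alcohol libraries below the 4 DSS libraries at 15.4 to 18.7 against 20.6 to 25.3 CPM without passing (-0.46 ± 0.19, adjusted p = 0.367).

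The guanylate-binding proteins assemble on pathogen membranes, and 4 of the 5 measured here (Gbp2, Gbp3, Gbp5 and Gbp7) sit in a cluster on chromosome 3, with Gbp6 on chromosome 5. Gbp3 had 6.73, 13.4, 12.2 and 12.1 CPM in the DSS group and 0.504, 4.45, 7.84 and 7.66 CPM in the diet-alcohol group. Only DSS 15 kept the groups from separating (-1.12 ± 0.59, adjusted p = 0.515; -0.74 ± 0.30 without diet-alcohol 35, adjusted p = 0.255). Gbp6 had 1.68 to 2.88 CPM against 0.442 to 1.74 CPM (-1.09 ± 0.55, adjusted p = 0.489). These levels rest on 19 to 34 counts per DSS library and 4 to 37 per diet-alcohol library. Without diet-alcohol 35, the only diet-alcohol library to overlap, its groups separated (-1.34 ± 0.52, adjusted p = 0.237). The share of all tested genes that separate in that setting is not given here.

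The other 3 lay closer to 0. Gbp2 had 1.37 to 3.43 CPM in the DSS group and 0.728 to 4.97 CPM in the diet-alcohol group (0.17 ± 0.59, adjusted p = 0.948), a sign that turned with limma-voom (-0.10). Gbp7 had 2.64 to 5.96 CPM and 0.224, 2.88, 4.20 and 3.33 CPM (-0.50 ± 0.65, adjusted p = 0.839). Gbp5, the least abundant of the 32 per length at a mean of 0.188 FPKM, had 9 to 19 counts per DSS library and 0 to 37 per diet-alcohol library (-0.08 ± 0.998, adjusted p = 0.986). Gbp genes are close copies of one another, so reads could have been divided or dropped among them.

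Irf1, the transcription factor that interferon-gamma induces first, had the highest fold change of the 32 genes. It had 10.1, 8.28, 5.99 and 8.19 CPM in the DSS group and 5.15, 10, 16.4 and 11.5 CPM in the diet-alcohol group (0.39 ± 0.34, adjusted p = 0.741). Without diet-alcohol 35 it stood at 0.61 ± 0.26 (adjusted p = 0.281), and diet-alcohol 45 and DSS 15 then still overlapped.

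Psmb8 and Psmb9 encode catalytic subunits that replace Psmb5 and Psmb6 in the immunoproteasome, which trims peptides for MHC class I, and they lie together on chromosome 17 (34181988 to 34201454) in the MHC region. Psmb8 had 23.0, 19.4, 24.2 and 18.6 CPM in the DSS group and 6.55, 23.5, 18.9 and 26.2 CPM in the diet-alcohol group (-0.18 ± 0.36, adjusted p = 0.904). Psmb9 had 9.95 to 13.2 CPM and 3.36, 12.2, 19.7 and 11.7 CPM (0.02 ± 0.41, adjusted p = 0.991). It overlaps Tap1 on the other strand. Both genes had 1 low library, diet-alcohol 35, and 3 within or above the DSS range. Psmb10, the third inducible subunit, stood at 0.34 ± 0.30 (adjusted p = 0.750).

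Relative to the subunit it replaces, Psmb8 had an FPKM ratio to Psmb5 of 0.144, 0.177, 0.215 and 0.193 in DSS 15, 48, 49 and 50. The ratio was 0.0546, 0.128, 0.150 and 0.128 in diet-alcohol 35, 45, 65 and 71. DSS 15 and diet-alcohol 65 overlapped (exact two-sided permutation p = 0.0571, or 0.171 adjusted over the 3 ratios, n = 4 each, where the smallest possible p is 0.0286). Psmb9 to Psmb6 was 0.0997 ± 0.0183 and 0.0682 ± 0.0399 (SD; exact permutation p = 0.171, n = 4 each, 0.256 adjusted). Psmb10 to Psmb7 was 1.21 ± 0.308 and 1.51 ± 0.846 (exact permutation p = 0.514, n = 4 each). The ratios were not tested without diet-alcohol 35. Of 14 constitutive subunits of the 20S proteasome none passed by edgeR, DESeq2 or limma-voom (3 at an unadjusted p under 0.05), and all 14 had positive values. Without diet-alcohol 35 there were 12 positive values and with the mitochondrial share as a covariate 11, and the median of 0.41 became 0.23 and 0.13. The lowest p was that of Psmb6 (0.58 ± 0.18, adjusted p = 0.173), ahead of Psmb1 (0.61 ± 0.20, 0.229), Psmb3 (0.41 ± 0.18, 0.400) and Psmb4 (0.58 ± 0.27, 0.437).

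Per length, the 32 genes spanned from 0.188 to 47.6 mean FPKM over the 8 libraries. Above 10 FPKM were Bst2, Iigp1 (32.2), Ifi27l2a (28.1), Irf7 (24.5) and Isg15 (12.6). Below 1 FPKM were 4 type I genes (Rsad2, Mx2, Ifi44 and Mx1) and 3 interferon-gamma genes (Gbp7, Gbp6 and Gbp5). The median level was 2.41 FPKM among the type I genes and 2.43 FPKM among the interferon-gamma genes.

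Libraries of the same group differed widely from each other in these genes. Diet-alcohol 35 was the lowest library for 16 of the 21 type I and 9 of the 11 interferon-gamma genes, where it was the lowest for 33.6% of all tested genes. The median deviation of the type I genes from their means over all 8 libraries was -1.68 in diet-alcohol 35 and -0.47 in 45, then 0.02 in 65 and 0.56 in 71. In the DSS group it was 0.04, 0.78, 0.16 and 0.95 in 15, 48, 49 and 50. The 4 diet-alcohol libraries thus covered most of the range, and diet-alcohol 71 lay above DSS 15 and 49.

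**Figure D4:**
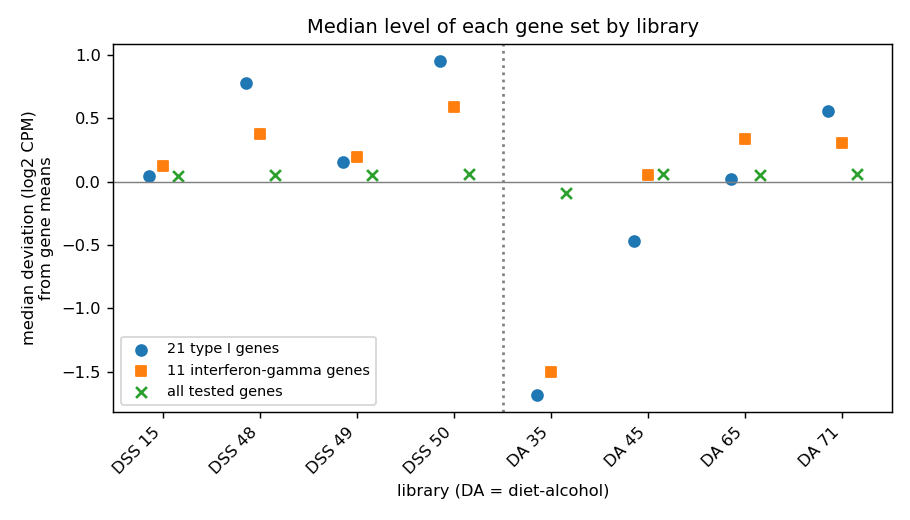
Median deviation, in log2 CPM, of the 21 type I genes (circles), the 11 interferon-gamma genes (squares) and all tested genes (crosses) from the mean of each gene over the 8 libraries, by library. Diet-alcohol (DA) 35 is at -1.68 and -1.50 for the 2 sets, while the median over all tested genes stays between -0.09 and 0.06 in every library.

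Within a group, the type I genes tended to be high or low in the same libraries. In the DSS group, library 50 was the highest for 12 of 21 and the lowest for 0, and library 15 was the lowest for 11. Over all tested genes library 50 was highest for 27.7% and library 15 lowest for 28.1%. For the 11 interferon-gamma genes in the DSS group, library 50 was the highest for 4 and the lowest for 1, and library 15 the lowest for 5. Among diet-alcohol 45, 65 and 71, library 45 was the lowest for 17 of 21 type I genes (28.1% of all tested genes) and library 71 the highest for 15 (34.0%). Among the same 3 diet-alcohol libraries, library 45 was the lowest for 5 of the 11 interferon-gamma genes. Library 65 was the highest for 7 of them (37.3% of all tested genes) and library 71 the highest for 2. The difference in order between the sets was not tested. DSS 50 had the largest mitochondrial share, 79.1%, and diet-alcohol 71 the smallest, 30.2%. The relation of the type I levels to that share was not tested.

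The spread on the log2 scale was larger in the diet-alcohol group for 20 of 21 type I genes and 10 of 11 interferon-gamma genes, and for 73.0% of all tested genes. Without diet-alcohol 35 these shares were 15 of 21, 10 of 11 and 53.0%. The median SD of the interferon-gamma genes was 0.31 in the DSS group and 0.36 among diet-alcohol 45, 65 and 71. That of the type I genes was 0.62 and 0.73, with 0.37 and 0.39 over all tested genes.

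Transcripts of the interferons themselves were almost absent. Of 21 ligand genes listed, 19 had no count in any library. Ifna13 had 5 counts in 1 library and Ifng 4 counts in 2 libraries, so none was tested. Of 10 tested receptor, kinase and STAT genes none passed by edgeR, DESeq2 or limma-voom (1 at an unadjusted p under 0.05; median 0.13). It was Stat3, which carries interleukin-6 signals, with 59.5, 28.3, 30.0 and 24.7 CPM in the DSS group and 60.8, 71.4, 46.4 and 72.7 CPM in the diet-alcohol group (0.82 ± 0.30, adjusted p = 0.277). DSS 15 alone overlapped the diet-alcohol libraries, and without it Stat3 passed (1.18, adjusted p = 0.046). Jak1 (0.41 ± 0.25, adjusted p = 0.609), Tyk2 (0.27 ± 0.29, 0.791) and the interferon-gamma receptor gene Ifngr1 (-0.28 ± 0.31, 0.807) did not pass.

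None of 7 tested negative regulators passed by edgeR or limma-voom (3 at an unadjusted p under 0.05), and DESeq2 called 1, Socs3. Socs3, which blocks receptor kinases, had 9.23, 2.39, 2.28 and 1.64 CPM in the DSS group and 5.99, 16.4, 33.6 and 11.7 CPM in the diet-alcohol group (2.07 ± 0.62, edgeR adjusted p = 0.166; DESeq2 adjusted p = 0.0161). Without DSS 15 its value was 2.98 and it passed with edgeR as well (adjusted p = 0.0367). Irf2, which competes with IRF1 for DNA, had 14.03 to 18.5 CPM and 22.3 to 23.4 CPM without overlap and did not pass (0.50 ± 0.19, adjusted p = 0.288). The phosphatase genes Ptpn2 (0.74 ± 0.27, 0.275) and Ptpn11 (-0.36 ± 0.23, 0.627) did not pass either.

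Of 17 tested genes of nucleic acid sensing none passed by edgeR, DESeq2 or limma-voom (2 at an unadjusted p under 0.05; median 0.01), and without diet-alcohol 35 Ikbke passed (1.32, adjusted p = 0.0434). Trim25, the ubiquitin ligase of RIG-I signalling, had 43.5 to 60.7 CPM in the DSS group and 26.1 to 42.4 CPM in the diet-alcohol group without overlap (-0.70 ± 0.23, adjusted p = 0.217). Ikbke, a kinase of IRF3, stood at 1.11 ± 0.39 (adjusted p = 0.257). It did not pass with edgeR when any library other than diet-alcohol 35 was left out (adjusted p = 0.242 to 0.607). The adaptor gene Myd88 stood at 0.37 ± 0.23 (adjusted p = 0.603) and the RNA sensor gene Ifih1 at -0.43 ± 0.34 (0.712).

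A wider set of 38 other type I response genes had a median of -0.13, or 0.02 without diet-alcohol 35, with none past the test by edgeR, DESeq2 or limma-voom (1 at an unadjusted p under 0.05) and 22 of 38 negative. The lowest p values were those of Lgals3bp (-0.75 ± 0.26, adjusted p = 0.255), Znfx1 (-0.47 ± 0.22, 0.444), Trim14 (0.80 ± 0.38, 0.456) and the RNA editing enzyme gene Adar (-0.66 ± 0.33, 0.483). Of 27 other interferon-gamma response genes none passed by edgeR or limma-voom (3 at an unadjusted p under 0.05; median -0.13), and DESeq2 called H2-K1.

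H2-K1, the MHC class I heavy chain that presents peptides made by the immunoproteasome, had 810, 1147, 1302 and 1025 CPM in DSS 15, 48, 49 and 50. It had 474, 397, 463 and 728 CPM in diet-alcohol 35, 45, 65 and 71, without overlap. Its log2 fold change was -1.05 ± 0.26 (edgeR adjusted p = 0.0924; DESeq2 adjusted p = 0.00509), and it passed with edgeR without diet-alcohol 71 (-1.27, adjusted p = 0.0455). B2m, the light chain, stood at -0.60 ± 0.30 (adjusted p = 0.483) and the peptidase gene Erap1 at -0.88 ± 0.33 (0.300). H2 genes are near-identical copies, so counts of H2-K1 are uncertain singly.

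Markers of T and NK cells, which make interferon-gamma, had a summed level of 4.55 to 8.28 CPM in the DSS group and 1.59 to 10.2 CPM in the diet-alcohol group over 15 markers, of which Ncr1, Prf1 and Klrd1 had 10 counts or fewer in all. Summed B and plasma cell markers (6) ran from 3.24 to 6.66 and from 1.11 to 8.39 CPM, and summed monocyte markers (6) from 18.5 to 37.1 and from 26.1 to 83.4 CPM. Summed Kupffer cell markers (10) ran from 235 to 370 and from 369 to 694 CPM. Of these Marco rose (log2 fold change 4.13, edgeR adjusted p = 0.00891). Its call was lost without diet-alcohol 35 (4.30, adjusted p = 0.0614), DSS 48 (4.17, 0.0519) or DSS 49 (3.98, 0.0534), with the mitochondrial share as a covariate (3.33, 0.0865) and without a filter on low counts (4.14, 0.104). Neutrophil markers were mostly too scarce to test, with 3 of 9 listed genes passing the low-count filter. These 3 rose by edgeR and DESeq2, 2 of them by limma-voom and 1 with the mitochondrial covariate. Among all tested genes 0.588% rose by edgeR. The 9 summed to 2.88 to 12.3 CPM in the DSS group and 27.3 to 56.2 CPM in the diet-alcohol group, with Ly6g and Ltf at 10 counts or fewer. At such low DSS levels a marker could pass the filter through its diet-alcohol counts alone. The 3 calls therefore give no share for the list that can be set against that background. Sinusoidal endothelial markers (7) overlapped at 105 to 170 and 76.7 to 169 CPM. The part of these cell types in the levels of the interferon-stimulated genes was not tested.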

How the data were processed

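Liver mRNA libraries were deposited as 1 table of the authors' raw counts per gene. The deposited FPKM values were checked against these counts: they equal count over length over an effective library size. The table also gives the authors' log2 fold change and p-value for the same comparison. The submitters' processing notes name GRCm38 and mm10; no source used here names the aligner, the counter or the strand setting.

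Groups were taken from the sample titles. Genes were filtered with filterByExpr, scaled with TMM and tested with edgeR 4.0.16 (robust quasi-likelihood F test, R 4.3.3) over all 8 libraries, with Benjamini-Hochberg adjustment over all 11729 genes and a threshold of 0.05. The prior count was 2 on the log2 scale. Standard errors are the fold change over the square root of F. Single ratios were compared by exact permutation over 70 assignments. Depths and limits cover counting error only.

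All 32 genes are named, then up to 4 per pathway list with the smallest p, and the proteasome partners; 1 further gene is not reported here. The genes and lists were chosen with earlier results of these data known. Alternatives were RLE and upper-quartile scaling, DESeq2 1.42.0, limma-voom (limma 3.58.1), 2 other filters, leaving out mitochondrial genes, the mitochondrial share as a covariate, limma on log2(FPKM + 1), and leaving out each library. Promoter sequences were not analysed here.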

Additional observations from a re-analysis of the deposited data

Results flagged for a closer look

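In 5 of the 64 groups of 4 libraries examined (32 genes in 2 groups), the most extreme library was far from the other 3 relative to the whole range, by Dixon's 95% criterion on log2 CPM. Chance alone would mark about 1 group in 20. Rsad2 had 1.32 CPM in DSS 49, against 4.77 to 5.55 in the other DSS libraries. Dhx58 had 7.43 CPM in DSS 49, against 9.53 to 9.60. Gbp3 had 6.73 CPM in DSS 15, against 12.1 to 13.4. In diet-alcohol 35, Mx2 had 0.392 CPM against 3.13 to 4.09 in the other diet-alcohol libraries, and Gbp7 had 0.224 CPM against 2.88 to 4.20.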

How the results depend on the processing

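No paired analysis was possible because the groups share no library number. The 148 genes called over the whole table became 441 with DESeq2, 249 without a filter on low counts and 55 with the mitochondrial share as a covariate, and 58 to 308 when 1 library was left out. The count of type I genes called was 0 with the covariate and 0 to 1 when 1 library was left out; that of interferon-gamma genes was 0 in all 17 alternatives. The type I median ran from -1.20 (without diet-alcohol 71) to -0.39 (without 35) and the interferon-gamma median from -0.35 to -0.01. Among uncalled genes, limma-voom turned Zbp1 (-0.066), Xaf1 (-0.34), Gbp2 (-0.10) and Psmb9 (-0.28), log2(FPKM + 1) turned Xaf1 (-0.056) and Psmb9 (-0.094), and the covariate turned Oasl2 (0.23), Mx2 (0.36), Stat2 (0.35) and Gbp5 (0.59). Leaving out 1 library turned the sign of some uncalled genes. The ranges were -0.91 to 0.20 for Oasl1, -0.40 to 0.062 for Oasl2, -0.33 to 0.30 for Mx2, -0.94 to 0.0098 for Stat2, -0.079 to 0.40 for Zbp1 and -0.32 to 0.36 for Xaf1. They were -0.26 to 0.49 for Gbp2, -0.77 to 0.34 for Gbp5, -0.39 to 0.11 for Psmb8 and -0.33 to 0.32 for Psmb9. The causes were not tested. For 24 of the 32 genes, Bst2 included, the 95% interval reached a 2-fold lower level or beyond, and for 14 without diet-alcohol 35; for the uncalled genes among them a 2-fold drop is neither shown nor excluded.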
